A study of Mus musculus with 6 samples.

Results

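The immunoglobulin kappa light-chain locus of the mouse lies on chromosome 6. Its 99 annotated variable (V) genes were followed, in their order along the chromosome, in sorted cells of the B lineage. The cells came from wild-type mice and from premalignant and malignant mice with a Myc transgene. The genes were taken by their annotated type, immunoglobulin V gene, on chromosome 6 of the gene models used here, which gave 124 of the 37991 genes counted. Of these, 99 lie between positions 67505630 and 70654171 of chromosome 6 (build mm9) and are described below as the kappa V genes. The other 25 lie in or next to the T cell receptor beta locus on the same chromosome, 22 of them with Trbv names, and were left out. A further 3 genes with Igkv names are typed as protein-coding, so the rule does not take them. RNA was sequenced from pre-B cells, sorted by flow cytometry from bone marrow as cells high in B220 and low in IgM and IgD, from mice of the C57BL/6 strain. Each of 3 stages had 2 libraries. Wild-type mice were 4 to 6 weeks old. Premalignant mice were of the same age and carried the heterozygous Eµ-Myc transgene, in which the heavy-chain enhancer drives Myc in the B lineage. Malignant mice carried the same transgene and were taken at 10 to 20 weeks, once a lymphoma had arisen spontaneously, so stage and age cannot be told apart for the malignant cells. A lymphoma may descend from a single cell. The labels give this gate for all stages. The study's methods instead describe the malignant cells as B220+ IgM- IgD-, so the gate may differ between the stages. They name the wild-type and premalignant cells as progenitor (pro-B) and precursor (pre-B) cells, and the malignant cells as transformed pre-B cells. The share of pro-B cells in each library was not tested. The methods also give female mice for the wild-type and premalignant cells and both sexes for the malignant cells. The study counts individual animals as replicates, and the labels do not say whether an RNA library was made from 1 animal.

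Pre-B cells have a rearranged heavy chain and are at the step at which the kappa light chain is assembled. The recombinase made of RAG1 and RAG2 cuts at a recombination signal sequence beside a V gene and at its counterpart beside a joining (J) segment, and the joined V and J are then spliced to the constant region, Igkc. V genes in the orientation of the J segments are joined by deletion of the DNA between them, whereas those in the opposite orientation are joined by inversion. V genes are also transcribed before they are rearranged, from the same promoters, and an octamer motif in these promoters binds the factors OCT1 and OCT2 with their coactivator OBF1. Counts on a V gene therefore sum germline and rearranged transcripts, and the counts used here cannot separate these.

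The 99 kappa V genes span 3149 kb, and the last of them, Igkv3-1, ends 18.4 kb before Igkj1. In all, 38 genes lie in the orientation of the J segments and 61 in the opposite orientation. Orientation is unevenly spread along the locus when the genes are divided into 3 stretches of 33. The distal stretch, farthest from the J segments (67505630 to 68705587), has 24 genes in the J orientation and 9 opposite. The middle stretch (68718562 to 69808878) has 1 and 32, and the proximal stretch (69850418 to 70654171) has 13 and 20. Position and orientation are thus partly the same variable in every comparison below.

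Promoter sequences are shown for the V gene with the most counts in wild-type libraries, Igkv1-135, and for the V gene with the most counts in malignant libraries, Igkv14-111. Each is 250 bases before to 50 bases after the start of the gene model, read from the mm9 genome on the plus strand, with the octamer ATTTGCAT in capitals.
Igkv1-135 (chr6:67559489-67559788): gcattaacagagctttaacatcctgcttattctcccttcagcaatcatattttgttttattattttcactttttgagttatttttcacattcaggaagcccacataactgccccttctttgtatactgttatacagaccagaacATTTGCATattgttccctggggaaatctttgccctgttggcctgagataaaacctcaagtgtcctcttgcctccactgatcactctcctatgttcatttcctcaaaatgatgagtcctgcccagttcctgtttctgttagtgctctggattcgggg
Igkv14-111 (chr6:68206148-68206447): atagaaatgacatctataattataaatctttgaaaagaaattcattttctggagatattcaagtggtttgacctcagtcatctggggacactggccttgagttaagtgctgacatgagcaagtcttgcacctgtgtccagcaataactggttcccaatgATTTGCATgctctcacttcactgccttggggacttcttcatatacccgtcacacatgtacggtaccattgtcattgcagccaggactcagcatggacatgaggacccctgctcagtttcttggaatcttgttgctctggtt
The octamer begins 106 bases before the model start in Igkv1-135 and 91 bases before it in Igkv14-111. Of the 82 kappa V gene models that begin with a start codon, 60 (73.2%) have ATTTGCAT on the sense strand of this window, beginning 83 to 109 bases before the model start, and none has it on the antisense strand. The same letters are found in the sense strand of 202 of 22380 windows of protein-coding genes (0.9%), or in 1.72% on either strand. The other 17 models do not begin with a start codon, so their window may not lie at the promoter. Igkv9-124 is among them, as is Igkv4-90, which has the octamer 132 bases before its model start.

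Recombination signals are shown for the V genes that led the counts of any library, read in the direction of each gene from the base after its annotated end. The heptamer and nonamer are in capitals and the 12-base spacer is in lower case.
Igkv1-135: CACAGTGattcagacccgaACAAAAACT
Igkv9-124: CACAGTGatacaaattataACATAAACC
Igkv14-111: CACAGTGagacaagtcataACATAAACC
Igkv1-88: CACAGTGatttataccccaACAAAAACT
All 4 begin with the heptamer CACAGTG, as do 75 of the 99 kappa V genes (75.8%). The most frequent nonamers after it were ACAAAAACC in 24 genes and ACATAAACC in 17. These coordinates are chr6:67560503-67560530 on the plus strand for Igkv1-135, chr6:67892040-67892067 on the minus strand for Igkv9-124, chr6:68206864-68206891 on the plus strand for Igkv14-111 and chr6:68812231-68812258 on the minus strand for Igkv1-88.

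Libraries held 30031100 to 53453055 counts in genes. Levels are given as CPM, the counts of a gene relative to the library's total after TMM scaling, on which a count of 3, taken as the floor of detection, corresponds to 0.0526 to 0.108 CPM. Markers of pre-B cells, 8 in number, were present in all 6 libraries and summed to 5020 and 5863 CPM in wild-type, 2979 and 2982 CPM in premalignant and 2967 and 2821 CPM in malignant libraries. At each Myc stage 7 of the 8 were called lower, by the test used for the V genes, where 20.3% and 24.3% of all genes tested were. Among them, Vpreb1 and Igll1 encode the surrogate light chain of pre-B cells. Vpreb1 was at 114 and 131 CPM in wild-type, 9.74 and 4.88 CPM in premalignant and 0.146 and 4.05 CPM in malignant libraries, with log2 fold changes of −4.06 and −5.97 (adjusted p = 0.0336 and 0.00999). Igll1 was at 197 and 195 CPM, 18.8 and 9.58 CPM, and 0.167 and 7.56 CPM (−3.78 and −5.73, adjusted p = 0.0569 and 0.0163). Summed markers of myeloid, erythroid, plasma and T cells were highest in the wild-type libraries, and those of mature B cells were lowest there. The summed level of 7 myeloid markers was 929 and 2098 CPM in wild-type, 282 and 303 CPM in premalignant and 65.7 and 119 CPM in malignant libraries, and all 7 fell at both Myc stages. Erythroid markers summed to 299 and 1167 CPM in wild-type libraries and to 59.3 to 158 CPM elsewhere. For 6 plasma cell markers the sums were 860 and 755 CPM in wild-type, 387 and 377 CPM in premalignant and 330.0 and 330.7 CPM in malignant libraries, of which Irf4, also a regulator of the kappa locus in pre-B cells, made up most, with 685 and 603 CPM, 306 and 310 CPM, and 281 and 244 CPM. T cell markers, 7 in number, summed to 123 and 79.2 CPM in wild-type and 46.2 and 25.6 CPM in premalignant libraries. In malignant replicates 1 and 2 they summed to 14.7 and 76.2 CPM. In malignant replicate 2 Lck alone was at 64.1 CPM. There Cd3e, Cd3g, Cd3d and Cd4 were below both wild-type libraries, and Cd8a and Cd8b1 lay between them. The 6 mature B cell markers summed to 611 and 827 CPM in wild-type and 1425 and 1544 CPM in premalignant libraries. Their malignant sums were 1636 and 3301 CPM. Cd74 made up most of the sums at the Myc stages, with 849 and 877 CPM in premalignant and 1054 and 2346 CPM in malignant libraries. Of the 6, 2 were called higher and 2 lower in premalignant cells, and 3 and 3 in malignant cells. Fcer2a and Cr2 fell at both. No marker of any of these lists was at 0 in every library of a stage, and the part of these cells in the results below was not tested.

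Transcripts of kappa V genes were far scarcer in Eµ-Myc cells than in wild-type cells. Together the 99 genes had 267 and 413 CPM in wild-type libraries, 35.0 and 41.8 CPM in premalignant libraries and 50.9 and 53.7 CPM in malignant libraries. The means were 339.9 ± 103 CPM, 38.4 ± 4.79 CPM and 52.3 ± 1.97 CPM (SD, n = 2 each), so the summed level was 8.84-fold lower in premalignant and 6.50-fold lower in malignant cells. Between single libraries, the premalignant deficit ranged from 6.38-fold to 11.8-fold. No library of a Myc stage reached the level of either wild-type library. With 2 libraries against 2, an exact two-sided permutation test of a single value cannot give a p below 0.333, and that was its value here for both Myc stages against wild type. In RNA from a sorted population, fewer cells that transcribe the locus and less RNA per cell cannot be told apart.

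**Figure D1:**
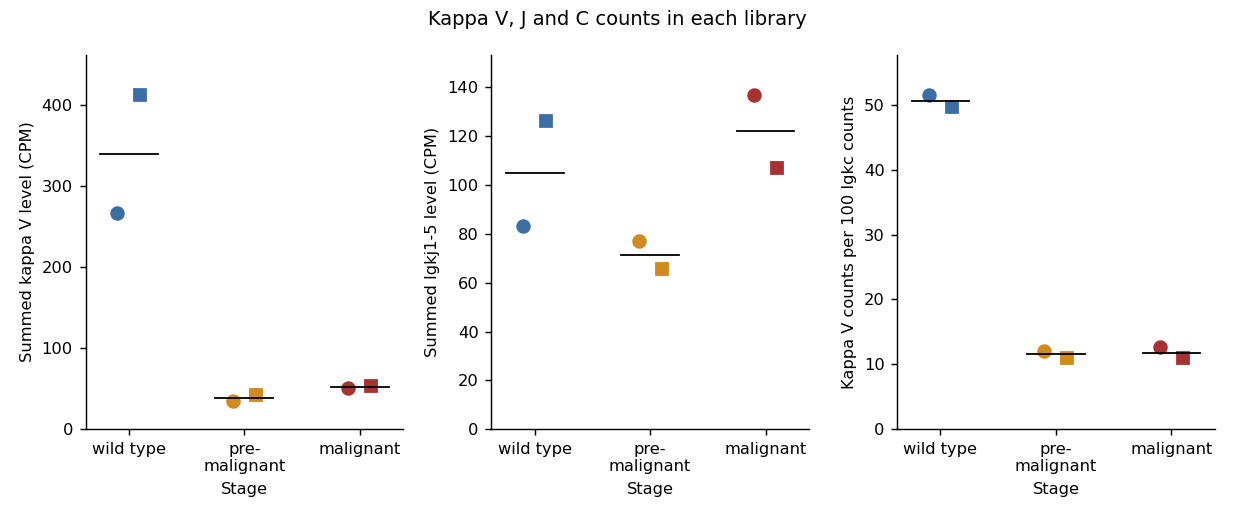
Each point is a library (circle, replicate 1; square, replicate 2), each bar is the mean of a stage, and the axes are the summed CPM of the 99 kappa V genes, the summed CPM of Igkj1 to Igkj5, and kappa V counts per 100 Igkc counts. The wild-type libraries stand at 267 and 413 CPM of kappa V and all other libraries lie below 54 CPM, while the J levels of the stages lie much closer together.

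The loss was in the V genes far more than in the J and C part of the locus. Summed over Igkj1 to Igkj5, levels were 83.2 and 126 CPM in wild-type, 77.0 and 65.4 CPM in premalignant and 137 and 107 CPM in malignant libraries. Wild-type and malignant J levels overlapped, and the premalignant J level was 1.47-fold lower than that of wild type. Igkc, the constant region shared by all kappa chains, had 518 and 831 CPM in wild-type, 291 and 380 CPM in premalignant and 404 and 488 CPM in malignant libraries. It fell in premalignant cells (log2 fold change −1.01 ± 0.27 SE, adjusted p = 0.0337), and in malignant cells its change of −0.60 ± 0.27 had an adjusted p of 0.117, and it was called in 5 of the alternative fits that kept all libraries. The premalignant call was lost without wild-type replicate 2 (−0.63, adjusted p = 0.166), premalignant replicate 1 (−0.82, 0.209) or premalignant replicate 2 (−1.20, 0.12). For every 100 counts on Igkc there were 51.5 and 49.7 kappa V counts in wild-type libraries, 12.1 and 11.02 in premalignant libraries and 12.6 and 10.99 in malignant libraries. This ratio is free of the scaling between libraries, its stages do not overlap for either Myc stage against wild type, and the Myc stages overlap each other. The J segments are shorter than a 50-base read, and a read across a V-J joint does not lie in 1 piece in the genome, so the counts on V, J and C are not counts of the same molecules.

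Among the J segments themselves, Igkj1, the nearest to the V genes, was at 10.9 and 13.7 CPM in wild-type, 11.4 and 11.5 CPM in premalignant and 24.2 and 20.9 CPM in malignant libraries. It rose in malignant cells against wild type (log2 fold change 0.87 ± 0.22, adjusted p = 0.0199) and against premalignant cells (0.97 ± 0.22, adjusted p = 0.0808). The second of these calls was lost with upper-quartile scaling (adjusted p = 0.103), with replicate number as a block (0.123) and with only the stages compared in the fit (0.135), and without either wild-type or either premalignant library (0.152 to 0.548). The first was lost without wild-type replicate 1 (0.72, adjusted p = 0.102). Igkj5, the farthest from the V genes, fell in premalignant cells (−0.91 ± 0.29, adjusted p = 0.057), a call that was lost without wild-type replicate 2 (−0.50, 0.299), premalignant replicate 1 (−1.07, 0.172) or premalignant replicate 2 (−0.76, 0.298), and Igkj2, Igkj3 and Igkj4 did not pass the test in either comparison with wild type.

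In wild-type cells counts were found on nearly the whole locus. Of the 99 kappa V genes, 95 and 96 had at least 3 counts in wild-type replicates 1 and 2, and 68 and 73 genes reached 1 CPM. The median gene was at 2.07 and 3.26 CPM. Compared per length, as CPM per kilobase of exon (RPKM), Igkv1-135 was highest at 64.6 and 104 RPKM. Igkv19-93 came next with 33.3 and 52.5 RPKM, against medians over the genes of 6.15 and 9.38 RPKM. Igkv1-135 is the second gene from the distal end, 3112 kb from Igkj1 (67559739 to 67560502, plus strand), and Igkv19-93 lies 1986 kb from Igkj1 (68686291 to 68686758, minus strand). The gene nearest to the J segments, Igkv3-1, was at 3.71 and 5.21 RPKM, and the farthest, Igkv2-137, at 18.5 and 34.5 RPKM. The order of the genes was nearly the same in both wild-type libraries, with a Spearman correlation across the 99 genes of 0.96, given as a description since genes share their library.

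**Figure D2:**
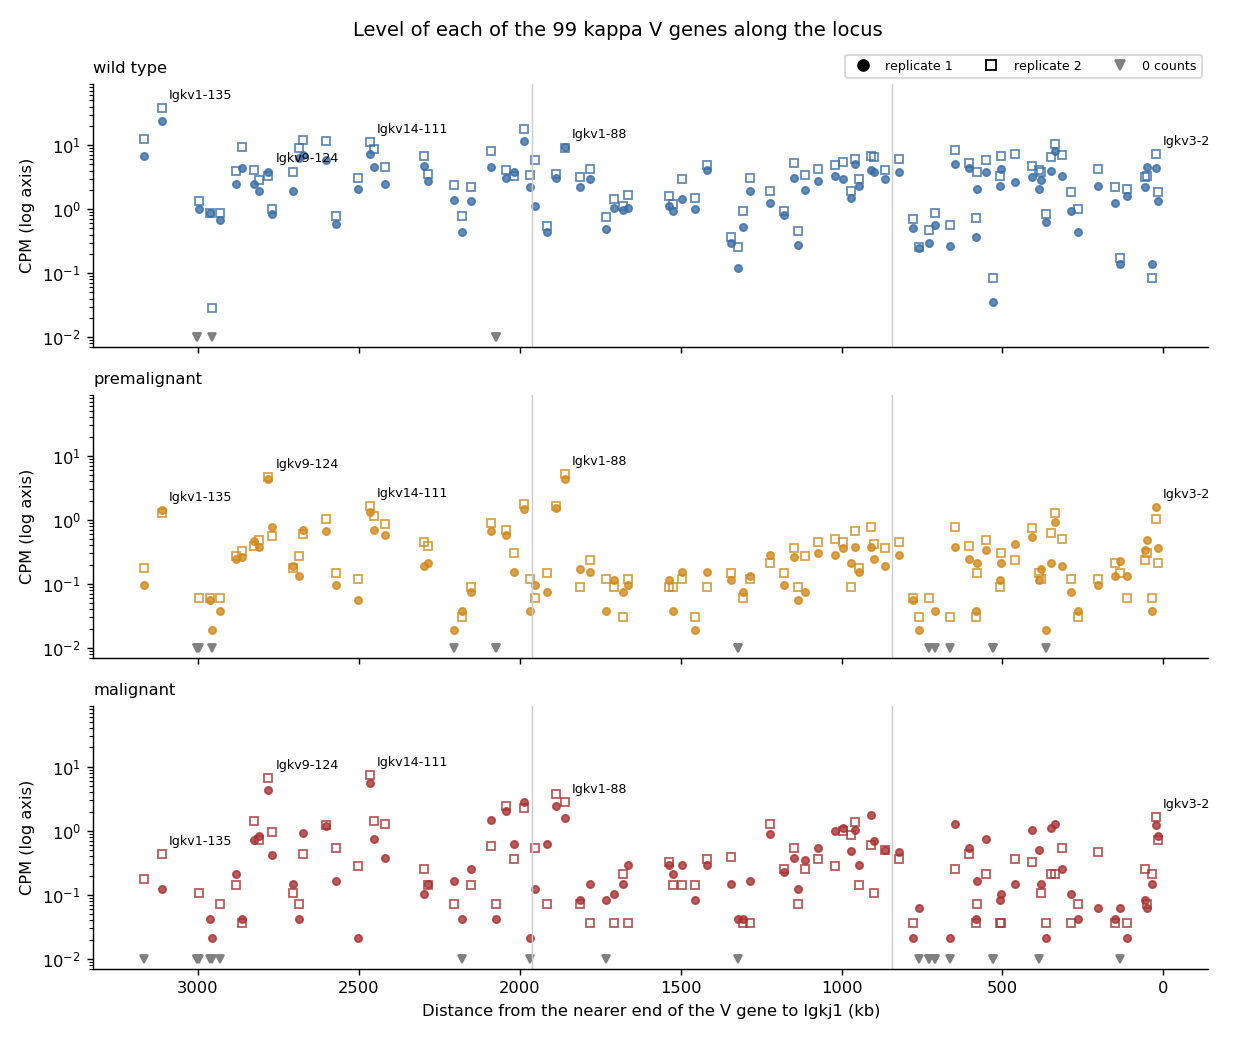
Level of each of the 99 kappa V genes in CPM (log axis) against its distance to Igkj1 in kb, by stage, with filled circles for replicate 1, open squares for replicate 2, grey triangles for libraries with 0 counts and grey lines between the 3 stretches of 33 genes. Most wild-type points lie near the median of 2.07 and 3.26 CPM, whereas the premalignant and malignant medians lie between 0.152 and 0.181 CPM with a few genes, among them Igkv9-124, standing above.

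The fall in premalignant cells ran along the whole locus. A gene was called when its adjusted p was 0.1 or less and its log2 fold change was 0.5 or more in size (edgeR quasi-likelihood test, Benjamini-Hochberg adjustment over all 16683 genes tested). Of the 92 kappa V genes with enough counts to be tested, 88 were called lower, 0 higher and 4 did not pass, where 20.3% of all genes tested were called lower. With no filter on counts, 88 of 98 were called lower, where 15.4% of 26485 genes were. Passing the count filter depended on the wild-type level, since 53 of the 92 genes had enough counts in wild type alone. Of the 32 genes with enough counts in both wild-type and premalignant cells, 30 were called lower. The median log2 fold change of the 92 genes was −3.75, with quartiles of −4.21 and −3.17, and that of all genes tested was −0.08. Of all 99 genes, 94 had both premalignant libraries below both wild-type libraries, which held for 41.2% of all genes tested. Leaving out any 1 wild-type or premalignant library lowered the count of genes called lower, and it lowered the share called lower over all genes as well. The median log2 fold change of the kappa V genes tested was then −3.96 and −3.30 without wild-type replicates 1 and 2. Without premalignant replicates 1 and 2 it was −3.51 and −3.83.

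Among the genes that fell were leaders of the wild-type counts and genes at both ends of the locus. Igkv1-135 had 23.4 and 37.8 CPM in wild-type libraries and 1.43 and 1.26 CPM in premalignant libraries. Its log2 fold change was −4.50 ± 0.53 (adjusted p = 0.00338), and of the 50-base windows in its exons 56.1% occur once in the locus, so part of its reads may belong to close relatives. Igkv19-93 fell from 11.5 and 18.1 CPM to 1.49 and 1.81 CPM (−3.16 ± 0.36, adjusted p = 0.00313). The most distal gene, Igkv2-137, fell from 6.71 and 12.5 CPM to 0.0953 and 0.181 CPM (−6.14 ± 1.06, adjusted p = 0.00958). At the opposite end of the locus, Igkv3-2 fell from 4.45 and 7.25 CPM to 1.58 and 1.05 CPM (−2.14 ± 0.43, adjusted p = 0.0148), and Igkv3-1 from 1.33 and 1.87 CPM to 0.362 and 0.211 CPM (−2.44 ± 0.47, adjusted p = 0.0127). None of these premalignant libraries overlapped the wild-type libraries. Without premalignant replicate 2 the calls of Igkv3-2 (−1.87, adjusted p = 0.128) and Igkv3-1 (−2.12, 0.116) were lost.

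A handful of genes stood apart from this fall. Igkv9-124 (67892068 to 67892354, minus strand) had 3.87 and 3.31 CPM in wild-type libraries, 4.44 and 4.64 CPM in premalignant libraries and 4.33 and 6.67 CPM in malignant libraries. It was the only kappa V gene with both premalignant libraries above both wild-type libraries, which held for 36.2% of all genes tested, and its log2 fold changes of 0.34 ± 0.34 and, in malignant cells, 0.61 ± 0.34 were not called (adjusted p = 0.481 and 0.191). Its neighbour Igkv9-123, named here after its values were seen, was not called either and had 0.841 and 0.991 CPM in wild-type, 0.781 and 0.572 CPM in premalignant and 0.418 and 0.968 CPM in malignant libraries. Igkv1-88 (68812259 to 68813025, minus strand) fell only from 9.27 and 8.95 CPM to 4.40 and 5.21 CPM in premalignant cells. This call was at the edge of the threshold (log2 fold change −0.92 ± 0.36, adjusted p = 0.0994) and was lost with no filter on counts (0.107) and with replicate number as a block (0.103). Igkv12-89, which lies next to it, fell from 3.05 and 3.57 CPM to 1.52 and 1.66 CPM (−1.06 ± 0.37, adjusted p = 0.072; 0.104 with no filter). Both calls were lost when any 1 wild-type or premalignant library was left out, with adjusted p of 0.266 to 0.375 for Igkv1-88 and 0.155 to 0.296 for Igkv12-89. Both genes have only exon windows that occur once in the locus, while 68.1% of the windows of Igkv9-124 do.

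**Figure D3:**
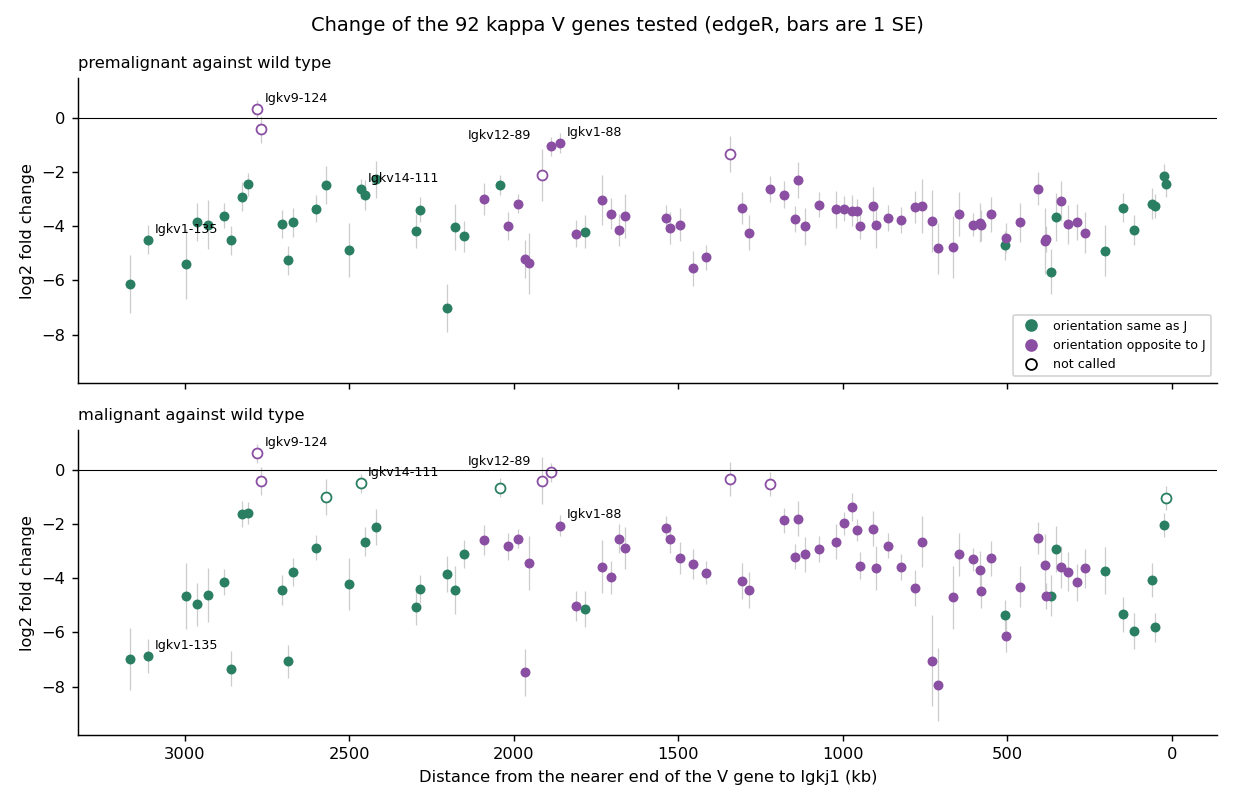
The log2 fold change of the 92 kappa V genes tested against distance to Igkj1 in kb, in premalignant (top) and malignant (bottom) cells against wild type, with bars of 1 SE, green for genes in the J orientation, purple for the opposite orientation and open circles for genes not called. In premalignant cells 88 genes are called lower along the whole axis, and Igkv9-124, Igkv12-89 and Igkv1-88 lie nearest to 0 among the labelled genes.

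In malignant cells the same locus-wide fall was seen with more scatter. Of the 92 genes tested, 82 were called lower, 0 higher and 10 did not pass, where 24.3% of all genes tested were called lower. With no filter on counts, 81 of 98 were called lower, where 17.1% of all genes were. Among the 31 genes with enough counts in both wild-type and malignant cells, 24 were called lower. The median log2 fold change was −3.51, with quartiles of −4.44 and −2.53, and that of all genes tested was −0.02. Igkv18-36 and Igkv1-35 had 0 counts in both malignant libraries. Against a floor of 3 counts per library they were at least 4.58-fold and at least 8.45-fold lower than in wild type, and with these genes at that bound the median was −3.46. Of all 99 genes, 88 had both malignant libraries below both wild-type libraries, where 36.4% of all genes tested did, and 8 overlapped. The 3 genes above, where 35.3% of all genes tested were, were Igkv9-124 and the nearly silent Igkv10-96 and Igkv3-3, each of these under 0.22 CPM in every library. Without malignant replicate 1, Igkv9-124 was called higher.

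Steep malignant falls were found at the distal end, and others lay in the middle and proximal stretches. Igkv1-135, which led the wild-type counts, was at 0.126 and 0.430 CPM in malignant libraries (log2 fold change −6.88 ± 0.62, adjusted p = 0.00092). For Igkv2-137 the malignant libraries held 0 and 5 counts, against 383 and 441 in wild type (−6.96 ± 1.14, adjusted p = 0.00504). Igkv17-121, chosen after its values were seen, had 353 and 320 counts in wild-type and 2 in each malignant library (−7.07 ± 0.61, adjusted p = 0.000854). Other leading genes fell less. Igkv19-93 was at 2.78 and 2.29 CPM (−2.54 ± 0.35, adjusted p = 0.00292), Igkv1-88 at 1.57 and 2.83 CPM (−2.06 ± 0.38, adjusted p = 0.00718) and Igkv3-2 at 1.21 and 1.65 CPM (−2.03 ± 0.43, adjusted p = 0.0117).

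Genes that did not pass the test in malignant cells included some of the most abundant V genes of those cells. Igkv14-111 (68206398 to 68206863, plus strand), whose promoter is printed above, had 7.34 and 11.1 CPM in wild-type, 1.33 and 1.66 CPM in premalignant and 5.52 and 7.53 CPM in malignant libraries. It fell in premalignant cells (−2.62 ± 0.37, adjusted p = 0.00526), and in malignant cells its level overlapped that of wild type (−0.50 ± 0.34, adjusted p = 0.288). Igkv12-89 was at 2.45 and 3.80 CPM in malignant cells, across its wild-type range (−0.09 ± 0.36, adjusted p = 0.871). Igkv3-1, nearest to the J segments, was at 0.837 and 0.717 CPM (−1.03 ± 0.44, adjusted p = 0.103), below both wild-type libraries, and was called with upper-quartile scaling (adjusted p = 0.0705).

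Between the Myc stages 6 kappa V genes were called, some of them on few counts. Against premalignant cells, Igkv14-111 rose (2.13 ± 0.36, adjusted p = 0.0443), as did Igkv10-95 and Igkv4-58, where 3.73% of all genes tested were called higher. Igkv1-135 fell (−2.38 ± 0.57, adjusted p = 0.0941), as did Igkv17-127 and Igkv3-4, where 2.45% of all genes were called lower. Igkv14-111 had 70 and 55 counts in premalignant and 264 and 210 in malignant libraries. Igkv10-95 had 31 and 23 against 99 and 69, and Igkv17-127 had 14 and 11 against 2 and 1. These shares, 3 of 92 in each direction, are near those of all genes. None of the 6 was called when only the stages compared entered the fit, where 1.25% of all genes were called higher and 0.412% lower. The 6 calls were lost when any 1 wild-type or premalignant library was left out, and calls over all genes tested became fewer as well. Without either malignant library, calls were more frequent among the kappa V genes and over all genes. With 1 library left out, the median log2 fold change of the kappa V genes tested ran from 0.0 to 0.58. At an FDR of 0.05, Igkv14-111 alone passed. Of all 99 genes, 30 had both malignant libraries above both premalignant libraries and 19 had both below, where 25.9% and 25.2% of all genes tested did, and 50 overlapped.

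Which V genes carried the kappa V counts also differed between stages. In wild-type cells Igkv1-135 held 8.76% and 9.16% of the kappa V counts (95% Wilson intervals 8.32 to 9.22% and 8.70 to 9.64%, counting error only). It held 4.08% and 3.03% in premalignant and 0.247% and 0.802% in malignant libraries. Igkv9-124 went from 1.45% and 0.803% in wild-type to 12.7% and 11.1% in premalignant and 8.51% and 12.4% in malignant libraries. Igkv1-88 held 3.47% and 2.17% in wild-type, 12.6% and 12.5% in premalignant and 3.08% and 5.28% in malignant libraries. The gene with the most counts in both malignant libraries was Igkv14-111, with 10.9% and 14.0% against 2.75% and 2.68% in wild-type libraries. Igkv19-93 kept a share of 4.24% to 5.47% in all 6 libraries. Of these 5 genes, Igkv9-124 alone had a higher mean CPM in a Myc stage than in wild type, and as given above that difference was not called.

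**Figure D4:**
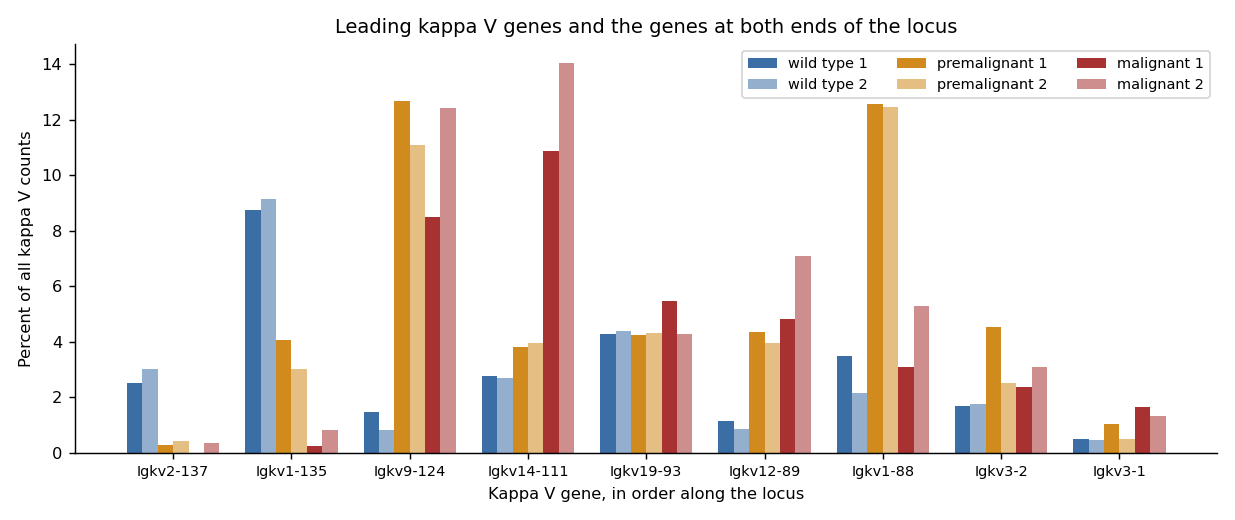
Percent of all kappa V counts held by the 9 named V genes, in order from the distal end to the J segments, with a bar for each library. Igkv1-135 is highest in the wild-type bars (8.76% and 9.16%), Igkv9-124 and Igkv1-88 in the premalignant bars (11.1% to 12.7%) and Igkv14-111 in the malignant bars (10.9% and 14.0%).

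The kappa V counts were spread over fewer genes at the Myc stages. The effective number of genes, the inverse of the summed squared shares, was 44.2 and 42.9 in wild-type, 21.4 and 23.7 in premalignant and 27.0 and 18.4 in malignant libraries. The 10 leading genes held 33.9% and 34.1% of the counts in wild-type, 53.1% and 49.7% in premalignant and 48.2% and 58.6% in malignant libraries. Wild-type values do not overlap those of the Myc stages, and the Myc stages overlap each other. Depth moved with this difference, since the wild-type libraries held 15235 and 14576 kappa V counts, the premalignant ones 1839 and 1388 and the malignant ones 2432 and 1497, and the part of depth was not tested. In rank order across the 99 genes, the premalignant libraries had a Spearman correlation of 0.92 with each other and the malignant libraries 0.77, while each malignant library had 0.56 to 0.60 with the wild-type libraries. The share of the counts that would have to move between genes to match the composition of a pair of libraries was 8.17% between the wild-type libraries, 12.8% between the premalignant libraries and 26.4% between the malignant libraries.

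No single kappa V gene dominated a malignant library, which set kappa apart from the heavy chain. The leading heavy-chain V gene, of 112 on chromosome 12, held 32.4% and 80.4% of the heavy-chain V counts in malignant replicates 1 and 2, against 4.99% to 6.16% in the other 4 libraries. The summed heavy-chain V level was 2.91 CPM in malignant replicate 1 and 244 to 702 CPM in the other libraries. The leading kappa V gene held 10.9% and 14.0% in the same malignant libraries.

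Along the locus, the largest shift in share was at its distal end. The genes were taken in 11 groups of 9 neighbours. The most distal group, Igkv2-137 to Igkv17-127 (67505630 to 67811653), held 14.8% and 16.2% of the kappa V counts in wild-type, 6.15% and 5.33% in premalignant and 0.864% and 1.804% in malignant libraries. Its summed level fell from 39.5 and 66.7 CPM to 2.15 and 2.23 CPM, 24.2-fold, and to 0.439 and 0.968 CPM, 75.5-fold. The next group, Igkv14-126 to Igkv2-116 (67846171 to 68102613), which holds Igkv9-124, was 4.88-fold lower in premalignant and 3.78-fold lower in malignant cells. The other groups were 3.91-fold to 14.9-fold lower in premalignant cells. In malignant cells, the groups beyond the first were 3.75-fold to 14.6-fold lower, and the smallest falls were in the groups that end in Igkv12-89 (3.75-fold), hold Igkv9-124 (3.78-fold) and hold Igkv14-111 (3.79-fold). Each group has 9 genes, so 1 leading gene can set its value, and with 2 libraries a stage no group could pass an exact test.

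**Figure D5:**
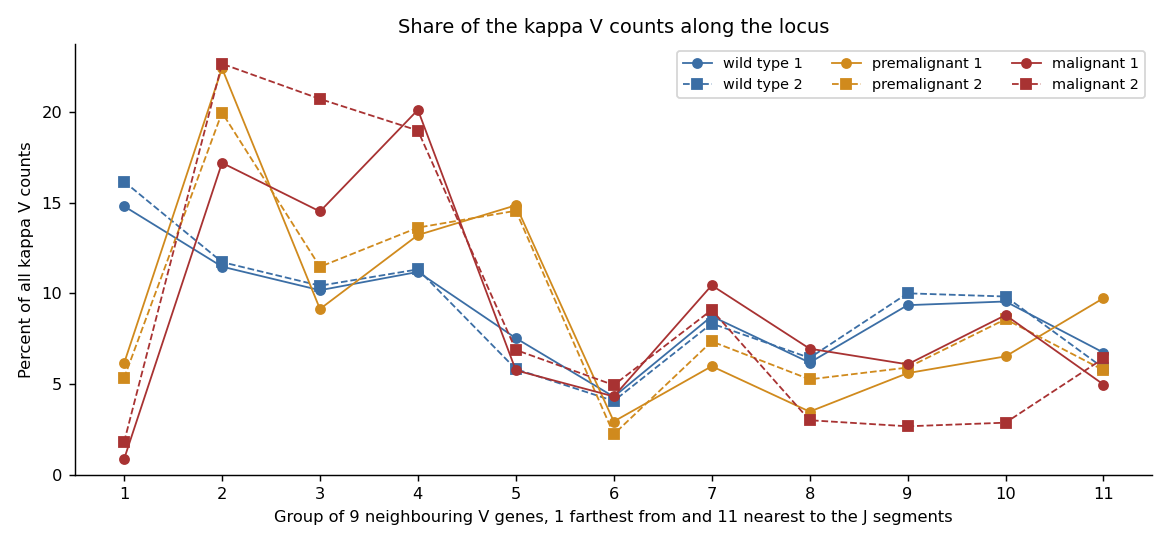
Percent of all kappa V counts in each of 11 groups of 9 neighbouring V genes, from the distal end (1) to the J segments (11), with a line for each library. Group 1 falls from 14.8% and 16.2% in wild-type to under 2% in the malignant libraries, and groups 2 to 4 hold more of the counts in the malignant than in the wild-type libraries.

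Of the 3 stretches, the proximal 33 genes held 27.8% and 27.9% of the kappa V counts in wild-type, 23.0% and 21.8% in premalignant and 21.0% and 12.7% in malignant libraries. Their summed level was 11.03-fold lower in premalignant and 10.8-fold lower in malignant cells, against 8.99-fold and 5.92-fold for the distal stretch and 7.10-fold and 5.17-fold for the middle stretch. The distal stretch held 45.9% to 47.2% of the counts in all libraries but malignant replicate 2, where it held 55.9%. The malignant values overlapped those of wild type and lay above both premalignant values. Gene by gene the stretches were closer, with median log2 fold changes over the genes tested of −3.85, −3.58 and −3.84 in premalignant and −3.81, −2.85 and −3.91 in malignant cells for the distal, middle and proximal stretches.

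Genes opposite to the J segments held 53.7% and 52.3% of the counts in wild-type, 64.4% and 65.99% in premalignant and 65.1% and 57.4% in malignant libraries. Their summed level was 7.16-fold lower in premalignant cells, and that of genes in the J orientation 12.02-fold lower. Much of this gap was in 2 genes, Igkv9-124 and Igkv1-88. Without these, chosen after their values were seen, the opposite share was 51.3% and 50.8% in wild-type, 52.4% and 55.5% in premalignant and 60.5% and 48.3% in malignant libraries, so that wild-type and malignant values overlapped. Likewise, the 9 distal genes opposite to the J segments were 4.01-fold lower in premalignant cells, and 8.28-fold lower without Igkv9-124.

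V families, numbered by sequence likeness, showed the same general fall with different depth. Family 4, the largest with 24 genes, held 34.6 and 55.5 CPM in wild-type, 2.88 and 3.58 CPM in premalignant and 6.57 and 5.59 CPM in malignant libraries, 13.9-fold and 7.41-fold lower. Among families with counts in both malignant libraries, family 17 fell most, from 10.6 and 18.4 CPM to 0.400 and 0.603 CPM and to 0.0837 and 0.108 CPM, 28.9-fold and 152-fold lower. The malignant sums of family 17 were 4 and 3 counts, near the floor of 3 counts per library, so the 152-fold value is imprecise. Its 3 genes all lie in the distal stretch, and 1 of them, Igkv17-134, had no counts in any library. Family 9 fell least in premalignant cells, from 14.2 and 20.1 CPM to 6.16 and 6.09 CPM, 2.80-fold, and it holds Igkv9-124. In malignant cells family 14 fell least, from 11.9 and 18.4 CPM to 6.40 and 9.11 CPM, 1.95-fold, after 1.87 and 2.11 CPM in premalignant cells, and it holds Igkv14-111. Members of a family share sequence, so reads between them may be divided or lost.

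The fall was also read against sequence features, which took no part in choosing the genes. The 60 genes with an octamer in the promoter window had a median log2 fold change of −3.71 over the 56 tested in premalignant cells and −3.34 in malignant cells. Over the 21 tested of the 22 genes with a start codon but no octamer there, these medians were −3.86 and −3.69. Summed levels gave another order in premalignant cells, 11.3-fold lower with the octamer and 7.52-fold lower without it, and 6.997-fold and 9.19-fold lower in malignant cells. The 22 tested genes with the nonamer ACAAAAACC after CACAGTG had medians of −3.88 and −3.76, and the 50 tested with another nonamer −3.84 and −3.63. Of the genes whose exon windows occur once in the locus in at least 80% of cases, 42 of 44 tested were called lower in premalignant cells. So were 46 of 48 with more repeated windows, where 20.3% of all genes tested were called lower. As given above, 53 of the 92 genes tested passed the count filter through wild type alone. Windows were compared within the locus alone, and the part of shared reads was not tested.

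Genes that act on the locus changed as well. From a list of regulators of kappa rearrangement and transcription, 36 of 37 names were matched, and all 36 were tested. In premalignant cells 20 were called, 4 higher and 16 lower, where 39.3% of all genes tested were called, and in malignant cells 23 were called, 4 higher and 19 lower, where 49.2% of all genes were. The premalignant count was smaller without wild-type replicate 2 or either premalignant library, as was the count over all genes tested. Over the 36 regulators, the median log2 fold changes were −0.39 and −0.59. Rag1, which encodes the catalytic subunit of the recombinase, was at 1945 and 1798 CPM in wild-type, 329 and 286 CPM in premalignant and 154 and 56.8 CPM in malignant libraries. It fell in both (−2.61 ± 0.45, adjusted p = 0.00947, and −4.15 ± 0.48, adjusted p = 0.00168). Rag2, its partner, fell from 153 and 81.7 CPM to 44.8 and 43.4 CPM (−1.41 ± 0.52, adjusted p = 0.0838) and to 25.7 and 8.64 CPM (−2.77 ± 0.54, adjusted p = 0.00919). The premalignant call of Rag2 was lost at an FDR of 0.05 and when any 1 wild-type or premalignant library was left out (−0.88 to −1.79, adjusted p = 0.128 to 0.36). Irf4, a factor that acts at the kappa enhancers, fell from 685 and 603 CPM to 306 and 310 CPM and to 281 and 244 CPM (−1.06 ± 0.15, adjusted p = 0.00499, and −1.30 ± 0.15, adjusted p = 0.00159). Pou2af1, which encodes the octamer coactivator OBF1, was at 1265 and 1152 CPM in wild-type, 1290 and 1415 CPM in premalignant and 947 and 786 CPM in malignant libraries. Its changes of 0.16 ± 0.16 and −0.48 ± 0.16 were not called (adjusted p = 0.486 and 0.0573, the second being under the fold threshold). Pou2f1 and Pou2f2, which encode OCT1 and OCT2, are named here after their values were seen. Pou2f2 was called higher in malignant cells (0.75 ± 0.22, adjusted p = 0.0358) and not in premalignant cells (0.11 ± 0.22, adjusted p = 0.726). Pou2f1 was called in neither (adjusted p = 0.394 and 0.68).

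Against premalignant cells, malignant cells had 3 of the 36 regulators called lower and 0 higher, where 2.45% and 3.73% of all genes tested were. The regulator calls were lost when any 1 wild-type or premalignant library was left out, and calls over all genes tested became fewer as well. Without either malignant library, calls were more frequent among the regulators and over all genes. Spib, an ETS-family factor of B cells, fell from 754 and 750 CPM to 383 and 410 CPM (−0.92 ± 0.14, adjusted p = 0.0348). Bach2, a repressor active in pre-B cells, fell from 470 and 442 CPM to 232 and 154 CPM (−1.24 ± 0.21, adjusted p = 0.0456; 0.114 with only these stages in the fit). Lig4, the ligase of end joining, fell from 82.2 and 80.1 CPM to 47.6 and 31.9 CPM (−1.03 ± 0.25, adjusted p = 0.0955; 0.141 with only these stages in the fit). The Rag1 change of −1.54 ± 0.43 between these stages had an adjusted p of 0.129 and was not called, though it was in 4 alternative fits that kept all libraries.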

How the data were processed

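RNA was measured by poly(A)-selected RNA sequencing in 6 libraries, as 50-base single reads. The authors aligned reads with TopHat v2.0.8b and deposited raw counts per gene from HTSeq; the processing notes name build mm9, CASAVA 1.8.2, Bowtie and DESeq. HTSeq's annotation and its settings for strand and multiply aligned reads are not given in the sources used here. Deposited tables of the authors' own comparisons (fold changes and p-values) were not used.

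Gene identities, types and coordinates came from GENCODE vM1 on NCBIM37 (mm9), and sequences from that genome. Windows of 50 bases were compared within the locus on both strands. The count test was edgeR 4.0.16 (quasi-likelihood, TMM, filterByExpr, all 6 libraries in 1 fit, stage as the only term), with the study's thresholds of an adjusted p of 0.1 and an absolute log2 fold change of 0.5. Fold changes are relative to the TMM scaling. RPKM is CPM per kilobase of merged exons. Nothing in the labels says that replicate numbers pair animals. P-values measure the spread between 2 libraries a stage, and intervals cover counting error only. Scripts were tested on simulated counts. The genes described and the lists were chosen with earlier results of these data known. Named V genes are those among the 3 with the most counts in any library, the 3 largest called rises and falls whose higher stage averages 10 CPM or more, and those at both ends of the locus; others are said to be chosen after their values were seen, as are Igkv9-123, Igkv10-95, Igkv4-58, Igkv17-127 and Igkv3-4. Alternatives were DESeq2 1.42.0, other scalings, filters, thresholds, the replicate block and leaving out each library.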

Additional observations from a re-analysis of the deposited data

How the results depend on the processing

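The fall of the kappa V genes against wild type kept its direction in every fit. At premalignant and malignant stages it was called for 22 and 20 genes when only the 24 with at least 10 counts in every library were tested, a construction that tests fewer genes, and for 56 to 90 and 65 to 81 genes with 1 library left out. Between the Myc stages the 6 calls became 11 with no filter, 7 higher and 4 lower, where 5.43% and 5.18% of all genes were. With at least 10 counts they became 2, both higher, where 4.72% of all genes were. With only these stages in the fit they became 0, where 1.25% of all genes were called higher and 0.412% lower. At an FDR of 0.05 they became 1, higher, where 1.56% of all genes were. With 1 library left out they varied, as did calls over all genes. The 3 regulators called there became 10 with DESeq2, 11 with no filter, 5 with at least 10 counts, 1 with only these stages and 0 to 12 with 1 library left out; the 20 called in premalignant cells became 9 to 21 with 1 library left out, where a lone library is assumed to vary like the others. These alternatives for regulators were chosen after seeing the data, and the cause was not tested. With upper-quartile scaling the malignant median over all genes tested shifted from −0.02 to −0.19 (log2). Among the named genes, 534 alternative values stayed on the same side of the threshold with all libraries kept, 24 lost and 26 gained a call, and none changed sign while called. With 1 library left out, 331 stayed, 49 lost and 16 gained a call.

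The replicate numbers are shared by the stages, but 2 numbers cannot show a pairing; deviations of same-numbered libraries correlated at 0.41, 0.06 and 0.13 across genes. With the replicate block, 87 and 82 kappa V genes were called lower against wild type in premalignant and malignant cells, where 20.4% and 24.7% of all genes were. Between the Myc stages 3 were called higher and 3 lower, where 3.15% and 2.49% of all genes were. Of the regulators, 5 were called lower there.

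Summed malignant kappa V levels were 47.9 CPM per total count, 49.4 CPM with upper-quartile scaling and 45.7 CPM without each library's leading gene (premalignant, 33.6 CPM). With at least 10 counts in every library, the leading share was 11.1%, 19.3% and 17.5% and the effective number 18.6, 10.6 and 12.1 in wild-type, premalignant and malignant cells. Per exon length, the leading share was 8.57% and 14.0% in wild-type and premalignant cells, the wild-type effective number 45.1, the wild-type proximal share 28.1% and the premalignant opposite share 66.5%. With stretches of equal length, the proximal share was 37.4%, 29.7% and 28.1%. Without each library's leading gene it was 30.6% and 25.6% in wild-type and premalignant cells, and the opposite share was 58.2%, 60.2% and 69.9%. Without Igkv9-124 and Igkv1-88, an alternative chosen after seeing the data, the opposite share was 51.1%, 54.0% and 54.4%. The planned addition of kappa V pseudogenes was not run, since the annotation used here types none; adding the 3 protein-coding Igkv genes instead, also chosen after seeing the data, gave a wild-type proximal share of 27.6%. The cause of these shifts was not tested.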
